A study of Homo sapiens with 6 samples.

Results

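Genes that drive DNA replication and mitosis were followed in SK-Hep1 cells after knockdown of TARDBP. The group held 34 genes, each read by 1 named probe among the 47231 probes of the Illumina HumanHT-12 array. They were drawn up as a list of cell cycle genes with earlier results of these data known. Of the genes, 24 act in G2 phase and mitosis and 10 act in DNA replication. The platform annotation paired all 34 probes with the gene they were chosen for. All 34 also passed the filter on dim probes, which left 15201 probes for testing.

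SK-Hep1 is an adherent line established from a human liver cancer. One-colour bead arrays measured RNA of 3 siTARDBP samples, transfected to silence TARDBP, and of 3 siLuc samples, the control, whose name points to luciferase as the target. The siRNA sequences, the dose and the time after transfection are not used here. Nothing in the labels says that the samples of a group came from different cultures. The p-values therefore reflect the spread among these arrays alone, and that spread may be technical. TARDBP encodes TDP-43, an RNA-binding protein that takes part in splicing and RNA stability.

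A dividing cell copies its DNA in S phase and separates the copies in mitosis. Before S phase, CDT1 helps load the MCM helicase onto replication origins, and CDC45 and the GINS complex then switch it on. In G2 phase and mitosis, cyclins A and B with CDK1, the Aurora kinases and motor proteins build the spindle, and CDC20 triggers the separation of the chromosomes. Many replication genes are transcribed through E2F sites, and many mitotic genes through a CHR element (cell cycle genes homology region) near a CCAAT box.

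The promoters of 6 members are shown because they carry these elements and belong to genes that the results set side by side. CDC20 and HMMR passed the test beside KIF11, which did not, for mitosis, and CDT1 and GINS2 passed beside CDCA7, which did not, for replication. The sequences are those of RefSeq on GRCh38.p14, 5′ to 3′ on the gene's strand, with 250 bases before and 50 after the annotated start. CDC20 lies at chr1:43358731-43359030 on the plus strand, HMMR at chr5:163460382-163460681 on the plus strand and KIF11 at chr10:92592880-92593179 on the plus strand. CDT1 lies at chr16:88803539-88803838 on the plus strand, GINS2 at chr16:85688905-85689204 on the minus strand and CDCA7 at chr2:173354622-173354921 on the plus strand. Capitals mark every match, on either strand, to the CHR letters TTTGAA or TTCGAA, to CCAAT, or to the E2F letters TTCCCGC or TTGGCGC or TTCGCGC.
CDC20: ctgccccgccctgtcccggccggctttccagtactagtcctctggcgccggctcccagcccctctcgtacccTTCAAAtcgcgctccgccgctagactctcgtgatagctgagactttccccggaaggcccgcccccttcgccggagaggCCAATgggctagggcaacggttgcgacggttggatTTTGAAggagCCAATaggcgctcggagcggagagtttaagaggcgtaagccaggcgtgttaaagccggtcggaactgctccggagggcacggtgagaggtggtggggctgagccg
HMMR: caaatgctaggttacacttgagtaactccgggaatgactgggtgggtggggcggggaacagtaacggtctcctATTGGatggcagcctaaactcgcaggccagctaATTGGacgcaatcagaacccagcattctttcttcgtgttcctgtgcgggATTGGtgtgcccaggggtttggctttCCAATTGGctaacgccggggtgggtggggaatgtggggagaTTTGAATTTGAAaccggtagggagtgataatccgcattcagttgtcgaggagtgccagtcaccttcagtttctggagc
KIF11: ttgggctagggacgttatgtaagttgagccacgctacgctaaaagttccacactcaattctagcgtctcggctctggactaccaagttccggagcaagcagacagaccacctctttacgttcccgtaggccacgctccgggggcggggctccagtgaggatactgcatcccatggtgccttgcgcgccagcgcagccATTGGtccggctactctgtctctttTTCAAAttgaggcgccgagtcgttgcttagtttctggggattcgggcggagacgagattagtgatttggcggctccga
CDT1: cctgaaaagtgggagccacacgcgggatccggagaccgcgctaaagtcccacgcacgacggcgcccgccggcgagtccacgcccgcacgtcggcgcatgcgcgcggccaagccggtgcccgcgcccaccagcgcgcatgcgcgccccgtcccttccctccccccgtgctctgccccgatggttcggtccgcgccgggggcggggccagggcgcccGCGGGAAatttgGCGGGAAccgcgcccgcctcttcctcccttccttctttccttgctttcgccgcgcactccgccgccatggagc
GINS2: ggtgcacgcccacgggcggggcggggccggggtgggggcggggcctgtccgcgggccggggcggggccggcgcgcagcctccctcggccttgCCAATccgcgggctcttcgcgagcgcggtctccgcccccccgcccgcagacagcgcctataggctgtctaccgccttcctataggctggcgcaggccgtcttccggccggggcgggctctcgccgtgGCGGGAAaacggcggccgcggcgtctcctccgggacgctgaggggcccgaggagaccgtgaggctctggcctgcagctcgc
CDCA7: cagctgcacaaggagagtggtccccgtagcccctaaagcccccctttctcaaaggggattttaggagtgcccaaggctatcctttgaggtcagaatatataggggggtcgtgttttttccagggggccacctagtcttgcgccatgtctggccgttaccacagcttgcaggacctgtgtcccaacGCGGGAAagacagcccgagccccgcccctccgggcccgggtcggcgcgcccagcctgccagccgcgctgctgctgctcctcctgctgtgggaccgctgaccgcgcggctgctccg

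Promoter windows were at hand for 29 of the 34 members. Where a gene had several windows, as 6 members did, any match was counted. Among the 20 mitotic genes with a window, 15 (75.0%) held the CHR letters, 18 (90.0%) held CCAAT, 13 (65.0%) held both, and 7 (35.0%) held the E2F letters. Among the 9 replication genes, 8 (88.9%) held the E2F letters, 5 (55.6%) held CCAAT and 1 (11.1%) held the CHR letters. Over all 27305 genes with a window the shares were 19.5% for CHR, 39.7% for CCAAT, 7.85% for both and 13.1% for E2F. Over all 35116 single windows they were 16.4%, 34.6%, 6.38% and 11.0% in the same order. Matches to different motifs overlapped in 0 of the 36 windows of the members. These matches describe the letters of each window and show no binding.

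The knockdown was read first. On the normalised log2 scale TARDBP (ILMN_1677532) stood at 7.05, 6.82 and 6.75 on the siTARDBP arrays, against 7.95, 7.95 and 7.69 on the siLuc arrays. All siTARDBP arrays lay below all siLuc arrays. TARDBP fell by 0.98 log2 units with a standard error of 0.11, which is 1.98-fold (limma adjusted p = 1.55e-05). Its probe is dim, with a raw intensity of 106 ± 27.1 in siTARDBP and 228 ± 32.9 in siLuc (SD, n = 3 each), and exceeded the estimated background on 2 of 3 siTARDBP arrays and on 3 of 3 siLuc arrays.

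Replicate 2 of both groups had a lower background than the other arrays, with a mode of 59.5 intensity units in siTARDBP and 59.1 in siLuc, against 70.9 to 75.9 on the other 4. Of the hepatocyte markers, APOA1, TF and TTR exceeded the background on none of the 6 arrays, ALB did so dimly on 1 of its 2 probes, and SERPINA1 on 2 of its 4 probes. The mesenchymal marker VIM reached a raw intensity of 20004 ± 1938 in siTARDBP and 20384 ± 888 in siLuc (SD, n = 3 each) on its brighter probe. Of the other mesenchymal markers, CDH2 exceeded the background on all 6 arrays and FN1 on none. Of the epithelial markers, KRT8 had a raw intensity of 3228 ± 431 in siTARDBP and 3046 ± 62.8 in siLuc (SD, n = 3 each), KRT18 was measured on all 6 arrays by 1 of its 2 probes, EPCAM was dim, and CDH1 exceeded the background on no array. The endothelial markers PECAM1, CDH5 and VWF exceeded it on no array.

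Of the 34 cell cycle genes, 8 were lower after TARDBP knockdown and 0 were higher at an adjusted p under 0.05, by limma with Benjamini-Hochberg adjustment across the 15201 tested probes. In RNA from whole cultures, fewer cycling cells and less RNA per cycling cell cannot be told apart. Over all tested probes 5.32% were called lower and 5.84% higher, 11.2% in all, and 23.5% of the members were called lower. The split over all probes, 808 lower and 888 higher, depends on the scaling and was 734 lower and 282 higher with each array scaled to the median of all probes. At an unadjusted p under 0.05, 12 of the 34 members had a negative difference, against 12.8% of all tested probes, and TPX2 had a positive one. The mitotic genes called lower were CDC20, NCAPG, AURKA, HMMR and TOP2A, and the replication genes were CDT1, GINS2 and CDC45. The changes were small, between 1.22-fold for CDC45 and 1.44-fold for CDT1.

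**Figure D1:**
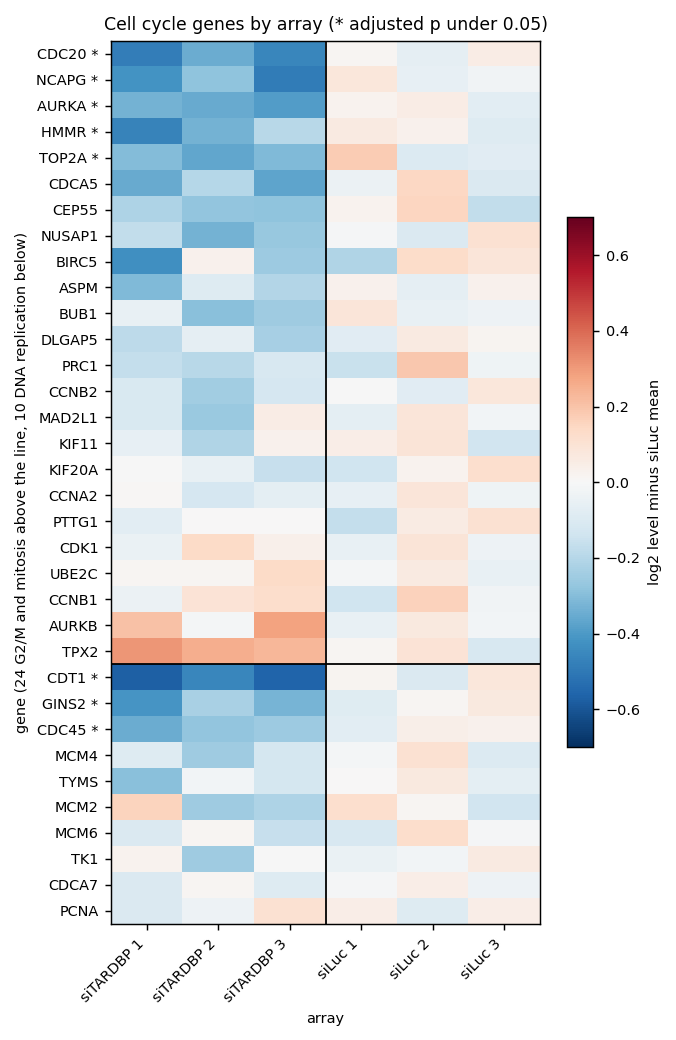
Normalised log2 level of each of the 34 genes on each of the 6 arrays, minus the mean of its 3 siLuc arrays, as a colour. The 8 genes past the threshold are lower than the siLuc mean on all 3 siTARDBP arrays.

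The members leaned to the lower side. Their log2 difference, siTARDBP minus siLuc, was negative for 29 of 34 (85.3%), against 50.9% of all tested probes. The median over the members was -0.15, against -0.0039 over all tested probes. On the mitotic side 19 of 24 were negative with a median of -0.16, and on the replication side 10 of 10 were negative with a median of -0.12. These counts varied with the arrays used, and without siTARDBP replicate 2 they were 20 of 24 and 8 of 10.

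The lean was present on each siTARDBP array. Relative to the siLuc mean of each gene, the median of the members was -0.11, -0.20 and -0.16 on siTARDBP replicates 1, 2 and 3, and -0.010, 0.055 and -0.023 on siLuc replicates 1, 2 and 3. All 3 siTARDBP arrays lay below all 3 siLuc arrays on this median. Gene by gene, the siTARDBP arrays lay wholly below the siLuc arrays in 14 of the 34 members, against 15.2% of all tested probes, and wholly above in 1, TPX2, against 14.3%. These counts and medians describe a list chosen with earlier results of these data known, and no test was made over it.

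**Figure D2:**
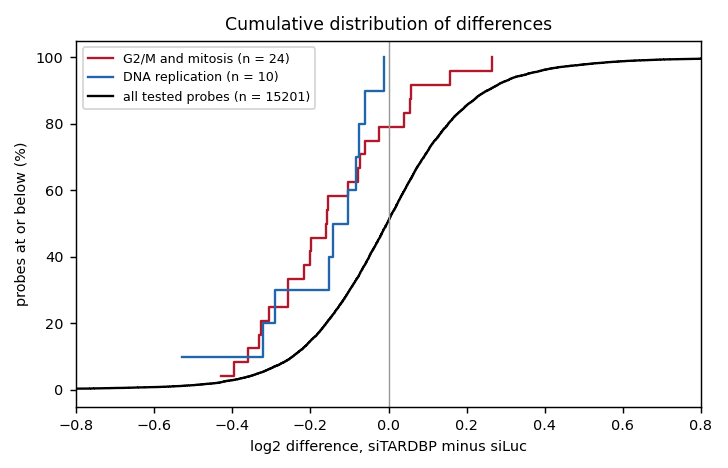
Share of probes (%) at or below each log2 difference, siTARDBP minus siLuc, for the 24 mitotic genes, the 10 replication genes and all 15201 tested probes. At a difference of 0 the mitotic genes have reached 79.2% and the replication genes 100%, against 50.9% of all tested probes.

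CDC20 (probe ILMN_1663390) activates the anaphase-promoting complex, which starts chromosome separation, and it had the largest fall of the mitotic members. Its normalised log2 level was 11.07, 11.20 and 11.09 on the siTARDBP arrays and 11.56, 11.49 and 11.61 on the siLuc arrays. No siTARDBP array reached the lowest siLuc array. CDC20 fell by 0.43 log2 units (standard error 0.093, 1.35-fold, limma adjusted p = 0.00596), with a raw intensity of 2087 ± 263 in siTARDBP and 3181 ± 409 in siLuc (SD, n = 3 each). The call held without each array in turn, at adjusted p-values of up to 0.0303.

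NCAPG (ILMN_1751444) is a subunit of condensin, which compacts chromosomes for mitosis. It stood at 9.79, 9.92 and 9.71 log2 units in siTARDBP, against 10.28, 10.14 and 10.18 in siLuc, again without overlap. NCAPG fell by 0.40 log2 units (standard error 0.096, 1.31-fold, limma adjusted p = 0.0127). The call was lost, at the adjusted p given in brackets here and for later genes, without siTARDBP replicate 3 (0.0706) or siLuc replicate 1 (0.058). The 3 tested probes of the other condensin genes, 1 of NCAPD2 and 2 of SMC4, gave -0.19, -0.22 and -0.18, and none of them passed.

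AURKA (ILMN_1680955), the Aurora A kinase of centrosomes and spindle poles, measured 10.60, 10.58 and 10.54 in siTARDBP and 10.95, 10.98 and 10.85 in siLuc. The siTARDBP values were close together and below every siLuc value. AURKA fell by 0.36 (standard error 0.091, 1.28-fold, limma adjusted p = 0.0167). The call was lost without siTARDBP replicate 3 (0.0676), siLuc replicate 1 (0.0553) or siLuc replicate 2 (0.0752). A further AURKA probe gave -0.28, which did not pass (adjusted p = 0.082).

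TPX2 (ILMN_1796949) targets Aurora A to the spindle and activates it, and it had the highest positive difference of the members. It stood at 10.19, 10.14 and 10.11 in siTARDBP, against 9.90, 9.98 and 9.77 in siLuc, and the groups did not overlap. The difference of 0.27 (standard error 0.094) did not pass the threshold (limma adjusted p = 0.0822), nor did it in any of the 21 alternative settings tried.

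HMMR (ILMN_1781942) is a spindle-associated protein that also binds hyaluronan. It was read at 9.32, 9.46 and 9.60 in siTARDBP and at 9.85, 9.82 and 9.70 in siLuc, without overlap. HMMR fell by 0.33 there (standard error 0.099, 1.26-fold, limma adjusted p = 0.0397), and the call was lost without siTARDBP replicate 1 (0.155), siTARDBP replicate 2 (0.0661), siLuc replicate 1 (0.123) or siLuc replicate 2 (0.128). The further HMMR probe ILMN_2409220 showed the same direction more clearly. It stood at 9.43, 9.81 and 9.61 in siTARDBP, against 10.19, 10.29 and 10.09 in siLuc, a fall of 0.57 log2 units (standard error 0.11, 1.49-fold, limma adjusted p = 0.00213).

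TOP2A (ILMN_1686097), the topoisomerase that untangles replicated chromosomes, had levels of 11.50, 11.44 and 11.50 in siTARDBP and 11.98, 11.71 and 11.73 in siLuc. The groups were apart, with siLuc replicate 1 above the other siLuc arrays. TOP2A fell by 0.33 (standard error 0.099, 1.25-fold, limma adjusted p = 0.0432). The call was lost without any 1 of the 6 arrays, namely siTARDBP replicate 1 (0.0844), siTARDBP replicate 2 (0.0877), siTARDBP replicate 3 (0.107), siLuc replicate 1 (0.191), siLuc replicate 2 (0.0669) or siLuc replicate 3 (0.0526). Without siLuc replicate 1 the difference was -0.24.

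**Figure D3:**
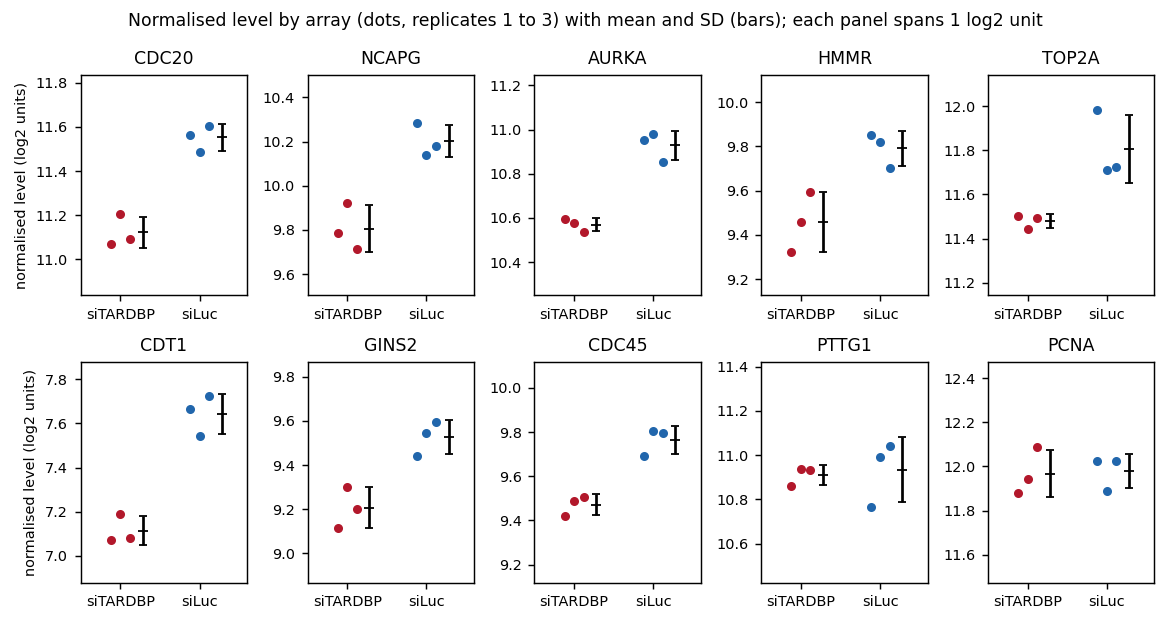
Normalised level (log2 units) of the 8 genes past the threshold and of PTTG1 and PCNA, the members with the smallest difference of each subgroup, on each array, siTARDBP at the left and siLuc at the right of each panel. The groups are apart for the 8 genes and overlap for PTTG1 and PCNA.

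The cyclins and the kinase that drive mitosis gave no call. CDK1, the kinase of mitotic entry, had a log2 difference of 0.041 (adjusted p = 0.836). Its partners CCNB1, CCNB2 and CCNA2 had differences of 0.059 (adjusted p = 0.773), -0.16 (adjusted p = 0.324) and -0.061 (adjusted p = 0.737). All siTARDBP arrays lay below all siLuc arrays for CCNB2, and above them on a further CDK1 probe. Over the 5 tested probes of these 4 genes, 0 passed in limma and 0 had an unadjusted p under 0.05. The 95% interval of the difference was -0.16 to 0.24 for CDK1 and -0.16 to 0.27 for CCNB1, and that for CDC20 was -0.63 to -0.23.

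PTTG1 (ILMN_1753196), or securin, which blocks the separation of sister chromatids until CDC20 acts, had the smallest difference of the mitotic members. Its levels were 10.86, 10.94 and 10.93 in siTARDBP, against 10.77, 10.99 and 11.04 in siLuc, and the groups overlapped. The difference was -0.023 (adjusted p = 0.917), with a 95% interval of -0.23 to 0.19. The sign of this difference turned in at least 1 alternative setting, as did that of CDK1, CCNB1, CCNA2, UBE2C, KIF11, MAD2L1, TK1 and PCNA, none of which passed in any setting.

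The chromosomal passenger complex corrects faulty spindle attachments. Its kinase AURKB had a difference of 0.16 (adjusted p = 0.352) and its subunit BIRC5 (survivin) one of -0.22 (adjusted p = 0.285). BUB1 and MAD2L1 of the spindle checkpoint had -0.20 (adjusted p = 0.219) and -0.11 (adjusted p = 0.563). The cytokinesis factors CEP55 and PRC1 had -0.26 (adjusted p = 0.114) and -0.16 (adjusted p = 0.359), and the spindle proteins NUSAP1, ASPM and DLGAP5 had -0.26 (adjusted p = 0.101), -0.20 (adjusted p = 0.194) and -0.16 (adjusted p = 0.312). None of these genes passed, although NUSAP1, CEP55, BUB1 and ASPM had all siTARDBP arrays below all siLuc arrays. The motor proteins KIF11 and KIF20A had -0.079 (adjusted p = 0.677) and -0.072 (adjusted p = 0.703).

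CDCA5 (ILMN_1683450), or sororin, which keeps sister chromatids together, lay just outside the threshold. Its levels were 10.17, 10.32 and 10.15 in siTARDBP and 10.48, 10.67 and 10.42 in siLuc, without overlap, and its difference was -0.31 (adjusted p = 0.0557). CDC45, the last gene inside the threshold, had an adjusted p of 0.0492. CDCA5 passed in 8 of the 21 alternative settings and CDC45 in 4.

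UBE2C, the ubiquitin-conjugating enzyme that works with the anaphase-promoting complex, had probes on either side of 0. The member probe ILMN_2301083 is bright and gave 12.14, 12.14 and 12.26 log2 units in siTARDBP, against 12.11, 12.19 and 12.07 in siLuc, a difference of 0.054 (adjusted p = 0.768). The further probe ILMN_2265654 is dim and gave 7.04, 6.99 and 6.88 in siTARDBP, against 7.24, 7.26 and 7.29 in siLuc, a difference of -0.30 (limma adjusted p = 0.0477). It exceeded the background on 2 of 3 siTARDBP arrays and on 3 of 3 siLuc arrays. Whether the probes differ beyond their error was not tested.

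**Figure D4:**
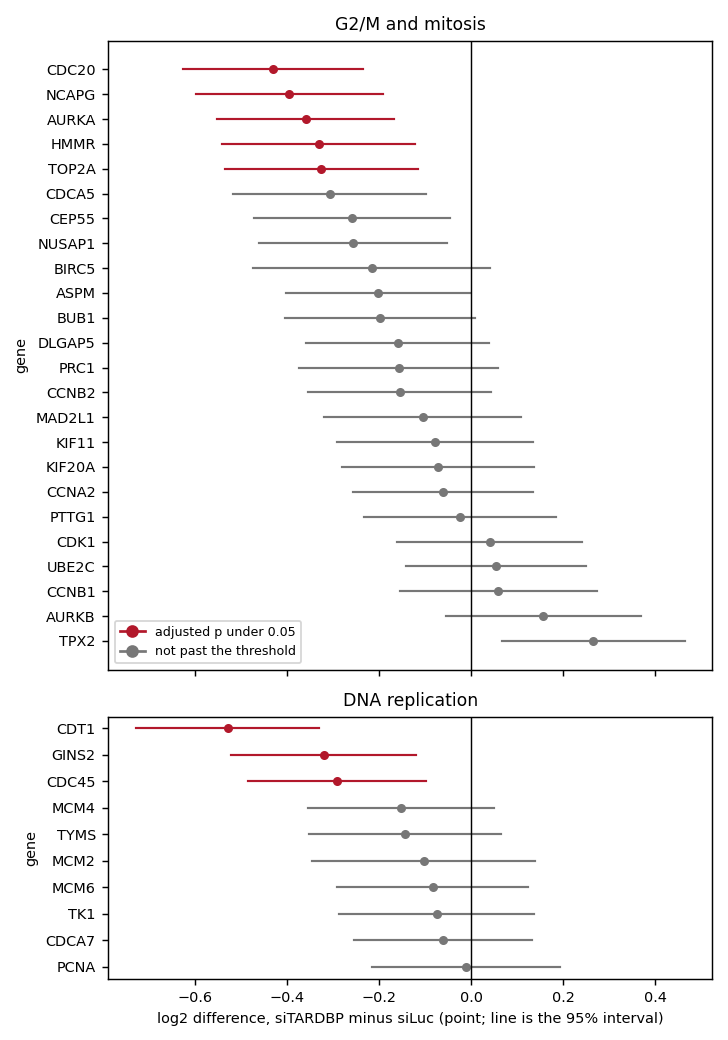
Log2 difference, siTARDBP minus siLuc, of the 24 mitotic genes and the 10 replication genes, with the 95% interval of the moderated test as a line. The 8 genes that passed an adjusted p of 0.05 all lie on the negative side, and TPX2 at 0.27 is the highest point.

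On the replication side the largest change was that of CDT1 (ILMN_1651237), the origin licensing factor. Its normalised level was 7.07, 7.19 and 7.08 log2 units in siTARDBP, against 7.66, 7.54 and 7.72 in siLuc. Every siTARDBP array lay below every siLuc array. CDT1 fell by 0.53 log2 units (standard error 0.094, 1.44-fold, limma adjusted p = 0.00144), and the call held without each array in turn, at adjusted p-values of up to 0.0106. The probe is dim, with a raw intensity of 123 ± 14.0 in siTARDBP and 193 ± 31.3 in siLuc (SD, n = 3 each), and exceeded the background on 2 of 3 siTARDBP arrays and on 3 of 3 siLuc arrays.

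GINS2 (ILMN_1809590) and CDC45 (ILMN_1670238) form the active helicase together with the MCM ring. GINS2 stood at 9.12, 9.30 and 9.20 in siTARDBP and at 9.44, 9.54 and 9.60 in siLuc, a difference of -0.32 (standard error 0.095, 1.25-fold lower, limma adjusted p = 0.0379). CDC45 stood at 9.42, 9.49 and 9.51 in siTARDBP and at 9.69, 9.80 and 9.80 in siLuc, a difference of -0.29 (standard error 0.092, 1.22-fold lower, limma adjusted p = 0.0492). The groups of neither gene overlapped, but both calls depended on which arrays were in. GINS2 was lost without siTARDBP replicate 1 (0.133), siTARDBP replicate 3 (0.106), siLuc replicate 1 (0.051), siLuc replicate 2 (0.114) or siLuc replicate 3 (0.113). CDC45 was lost without siTARDBP replicate 1 (0.139), siTARDBP replicate 2 (0.0714), siTARDBP replicate 3 (0.0999), siLuc replicate 1 (0.0681), siLuc replicate 2 (0.147) or siLuc replicate 3 (0.118).

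The MCM ring gave no call. MCM4 (ILMN_1737205) was read at 10.63, 10.47 and 10.59 in siTARDBP and at 10.70, 10.82 and 10.62 in siLuc, with overlap, a difference of -0.15 (adjusted p = 0.344). MCM2 and MCM6 had -0.10 (adjusted p = 0.627) and -0.084 (adjusted p = 0.646). Over the genes MCM2 to MCM7, 9 probes were tested, between -0.27 and 0.25, of which 0 passed in limma and 2 had an unadjusted p under 0.05. A further MCM4 probe gave 0.16 (adjusted p = 0.297), on the other side of 0 from the member probe.

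PCNA (ILMN_1694177), the sliding clamp of the replication fork, had the smallest difference of all members. Its levels were 11.88, 11.94 and 12.09 in siTARDBP, against 12.03, 11.89 and 12.02 in siLuc, a difference of -0.011 (adjusted p = 0.961) with a 95% interval of -0.21 to 0.19. TYMS and TK1, enzymes of thymidylate supply, had -0.14 (adjusted p = 0.395) and -0.075 (adjusted p = 0.694). CDCA7, a chromatin protein of S phase, had -0.061 (adjusted p = 0.732).

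Genes with like promoter letters were found among the calls and outside them. Of the promoters shown above, those of CDC20, HMMR and KIF11 each held the CHR letters and CCAAT, and the log2 differences of these genes were -0.43, -0.33 and -0.079. Those of CDT1, GINS2 and CDCA7 each held E2F letters, with differences of -0.53, -0.32 and -0.061. These values are of the member probes. On further probes HMMR gave -0.57 and KIF11 gave -0.25, the latter without passing (limma adjusted p = 0.0951). Over all mitotic members with a window, the CHR letters were in 4 of 4 genes called lower and in 11 of 16 without a call. The E2F letters were in 2 of 3 replication members called lower and in 6 of 6 without a call. CDC45, whose promoter is not shown, was the gene called lower without them.

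For 13 of the 34 genes the array held 14 further probes, of which 11 were tested. The probes of HMMR and UBE2C described above were lower, 18.2% of those tested against 5.32% of all tested probes, and 0 were higher. NUSAP1 gave -0.24 (adjusted p = 0.125) on its further probe beside -0.26 on the member probe, and KIF11 gave -0.25 (adjusted p = 0.0951) beside -0.079. For CDK1 the pair was 0.13 (adjusted p = 0.408) and 0.041, and for PCNA 0.15 (adjusted p = 0.354) and -0.011.

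A list of 36 other genes of DNA replication had 41 tested probes of 31 genes. Of these probes, 7 (17.1%) were lower and 0 were higher, and their median was -0.099. Over all tested probes 5.32% were lower and 5.84% higher. Like the members, this list and the lists below were chosen with earlier results of these data known. No test was made over them. The lower probes of the list belonged to FEN1, PRIM1, RFC3 (2 probes), RFC5, POLA1 and CHAF1B. RFC5, POLA1 and CHAF1B had differences of -0.35, -0.34 and -0.33 (limma adjusted p = 0.0193, 0.0246 and 0.0265). RFC5 was lost without siTARDBP replicate 1 (0.0567), siTARDBP replicate 3 (0.0592), siLuc replicate 2 (0.0798) or siLuc replicate 3 (0.055). POLA1 was lost without siTARDBP replicate 1 (0.0761), siTARDBP replicate 3 (0.0833), siLuc replicate 1 (0.0605) or siLuc replicate 2 (0.113), and CHAF1B without siTARDBP replicate 1 (0.0699), siTARDBP replicate 2 (0.0638), siTARDBP replicate 3 (0.0518), siLuc replicate 2 (0.108) or siLuc replicate 3 (0.0628). With each array scaled to the median of all probes POLA1 (0.0698), CHAF1B (0.0562) and the RFC3 probe ILMN_1658143 (0.0634) did not pass. FEN1 (ILMN_2160929), the flap nuclease that finishes Okazaki fragments, stood at 10.63, 10.88 and 10.91 in siTARDBP and at 11.22, 11.28 and 11.20 in siLuc, without overlap. It fell by 0.42 log2 units (standard error 0.099, limma adjusted p = 0.0103), lost without siTARDBP replicate 1 (0.0551) or siLuc replicate 2 (0.058), and gave -0.099 (adjusted p = 0.624) on its dimmer probe.

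RFC3 is a subunit of the clamp loader that places PCNA on DNA. On its probe ILMN_1784860 it measured 7.83, 7.73 and 7.78 in siTARDBP and 8.39, 8.14 and 7.96 in siLuc, without overlap. It fell by 0.38 there (limma adjusted p = 0.0313) and by 0.37 on ILMN_1658143 (limma adjusted p = 0.0173). The first call was lost without siTARDBP replicate 1 (0.0561), siTARDBP replicate 2 (0.0678), siTARDBP replicate 3 (0.0953), siLuc replicate 1 (0.154) or siLuc replicate 2 (0.0919), the second without siTARDBP replicate 3 (0.0883), siLuc replicate 2 (0.079) or siLuc replicate 3 (0.05). PRIM1 (ILMN_2210129), the primase that starts each new strand, had 8.92, 9.26 and 9.23 in siTARDBP and 9.41, 9.62 and 9.54 in siLuc, a fall of 0.38 (limma adjusted p = 0.0294). This call was lost without siTARDBP replicate 1 (0.141), siTARDBP replicate 3 (0.0513), siLuc replicate 2 (0.135) or siLuc replicate 3 (0.074), and the other PRIM1 probe gave -0.19 (adjusted p = 0.23).

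Among 45 further mitotic genes, 65 probes of 43 genes were tested. Of these, 3 (4.62%) were lower and 3 (4.62%) higher, near the 5.32% and 5.84% of all tested probes, with a median of -0.11. CENPE (ILMN_1716279), a kinetochore motor that aligns chromosomes, stood at 8.47, 8.50 and 8.60 in siTARDBP and at 9.34, 9.32 and 9.45 in siLuc. It fell by 0.85 log2 units (standard error 0.093, 1.80-fold, limma adjusted p = 1.68e-05) and by 0.83 on ILMN_2225718 (limma adjusted p = 3.03e-05). CDCA3 (ILMN_1737728), a factor of mitotic entry, stood at 9.21, 9.48 and 9.37 in siTARDBP, against 10.01, 10.17 and 10.16 in siLuc, and fell by 0.76 (limma adjusted p = 8.62e-05). The groups were far apart for both genes, and both passed in all 21 alternative settings.

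The 3 higher probes belonged to BUB3, CKS2 and KIF4A. BUB3, of the spindle checkpoint, rose by 0.40 (limma adjusted p = 0.00927) on 1 of its 4 probes, and the other 3 gave between -0.015 and 0.091. CKS2, a small partner of CDK1, rose by 0.33 on 1 of 2 probes (limma adjusted p = 0.0294), lost without siTARDBP replicate 1 (0.0655), siTARDBP replicate 3 (0.126), siLuc replicate 1 (0.0777) or siLuc replicate 2 (0.11). KIF4A, a chromosome motor, rose by 0.36 (limma adjusted p = 0.0316), lost without siTARDBP replicate 1 (0.105), siTARDBP replicate 2 (0.0631), siTARDBP replicate 3 (0.0513), siLuc replicate 2 (0.0987) or siLuc replicate 3 (0.128).

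Genes that control the step into S phase held the largest change among the cell cycle lists. Of 23 tested probes of 17 genes, 5 (21.7%) were lower and 1 (4.35%) was higher, with a median of 0.047. The shares over all tested probes were 5.32% and 5.84%. CDK6 (ILMN_1802615), a kinase that with D cyclins phosphorylates the retinoblastoma protein, stood at 9.21, 9.28 and 9.15 in siTARDBP and at 10.73, 10.49 and 10.65 in siLuc. The groups were more than 1 log2 unit apart. CDK6 fell by 1.41 (standard error 0.097, 2.66-fold, limma adjusted p = 1.63e-07) and passed in all 21 alternative settings.

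CCND3 (ILMN_1668721), cyclin D3 and a partner of CDK6, measured 10.40, 10.39 and 10.39 in siTARDBP and 10.91, 10.91 and 10.79 in siLuc, a fall of 0.48 (limma adjusted p = 0.00245). CDC25A, a phosphatase that activates CDKs, CDK4, and TFDP1, a partner of E2F factors, were the other lower genes, at -0.43, -0.33 and -0.31 (limma adjusted p = 0.0125, 0.0464 and 0.0417). CDC25A was lost without siTARDBP replicate 3 (0.0518), siLuc replicate 1 (0.069) or siLuc replicate 2 (0.0541), CDK4 without siTARDBP replicate 1 (0.158), siTARDBP replicate 2 (0.0957), siLuc replicate 1 (0.179) or siLuc replicate 2 (0.12) and TFDP1 without siTARDBP replicate 1 (0.0724), siTARDBP replicate 2 (0.0723), siTARDBP replicate 3 (0.129), siLuc replicate 1 (0.0604), siLuc replicate 2 (0.166) or siLuc replicate 3 (0.068). MYC, a transcription factor that promotes cell growth, was higher on ILMN_2110908, at 11.48, 11.39 and 11.40 in siTARDBP and 10.93, 10.99 and 10.99 in siLuc (0.45, limma adjusted p = 0.00342). Its other probe gave 0.27 (adjusted p = 0.0702), and E2F1, an activator of S-phase genes, gave -0.024 (adjusted p = 0.925).

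Of the CDK inhibitors, 6 probes of 5 genes were tested. Both probes of CDKN1B, the inhibitor p27, were higher, 33.3% of those tested against 5.84% of all tested probes, and 0 probes were lower. On ILMN_2196347 CDKN1B stood at 9.61, 9.70 and 9.66 in siTARDBP and at 9.24, 8.98 and 9.27 in siLuc, without overlap, a rise of 0.49 log2 units (standard error 0.10, 1.41-fold, limma adjusted p = 0.00378). On ILMN_1722811 the rise was 0.31 (limma adjusted p = 0.0492), lost without siTARDBP replicate 1 (0.114), siTARDBP replicate 2 (0.0896), siTARDBP replicate 3 (0.107), siLuc replicate 2 (0.125) or siLuc replicate 3 (0.18). The calls of ILMN_2196347 and ILMN_1722811 held in 18 and 4 of the 21 alternative settings. CDKN1A, the inhibitor p21, gave -0.15 (adjusted p = 0.342). With each array scaled to the median of all probes, 0 of the 6 higher probes of BUB3, CKS2, KIF4A, MYC and CDKN1B passed, at differences between 0.20 for CKS2 (limma adjusted p = 0.496) and 0.37 for CDKN1B (limma adjusted p = 0.114).

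**Figure D5:**
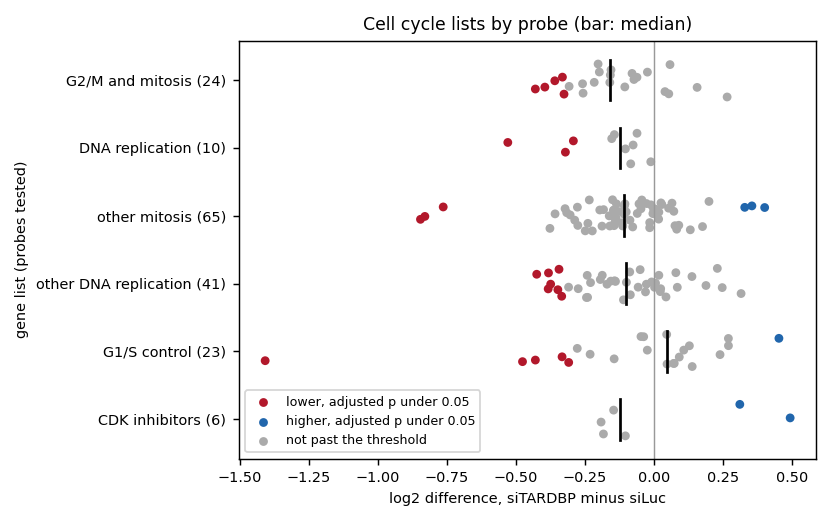
Log2 difference, siTARDBP minus siLuc, of each tested probe of both subgroups and of 4 further cell cycle lists, with the median as a bar. CDK6 is the point at -1.41, and CENPE and CDCA3 are the 3 points between -0.85 and -0.76.

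Since replicate 2 of both groups shared a lower background, the differences were also taken within each class of arrays. Over all 34 members, 31 were negative between the 2 arrays of the lower class, with a median of -0.23, and 25 over the 4 arrays of the higher class, with a median of -0.11. In limma with the 4 arrays of the higher class alone, CDC20, NCAPG and CDT1 passed. With the class as a block in limma, HMMR (adjusted p = 0.0506) and CDC45 (adjusted p = 0.0558) were lost and CDCA5 passed (adjusted p = 0.0412). Of the calls in the further lists, the same block ended that of CDK4 (adjusted p = 0.0587) and that of the CDKN1B probe ILMN_1722811 (adjusted p = 0.0603).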

How the data were processed

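RNA of 6 SK-Hep1 samples, 3 siTARDBP and 3 siLuc as grouped by the labels, was measured on Illumina HumanHT-12 bead arrays. The deposited intensity values, which the submitters' processing notes tie to BeadStudio, are linear, with 1 value per probe and array. The deposited value table is log2 and was read as quantile-normalised, since its columns share a median of 6.121 and a maximum of 14.539. It keeps the order of the intensities on each array (Spearman correlation of 1), and served as an alternative. No source used here gives other steps by the authors.

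The intensities were corrected with normexp (offset 50), quantile-normalised and tested on the log2 scale with lmFit and eBayes in limma 3.58.1 (R 4.3.3), with no block. A probe was tested where it exceeded the estimated background on at least 3 of 6 arrays, the background level being the 95th percentile of the dim peak mirrored about its mode. This kept 15201 of 47231 probes (32.2%), and p-values were adjusted by Benjamini-Hochberg over all of them, with a threshold of 0.05. The number of arrays limits the precision. Fold changes of dim probes are compressed by the background and the offset. Steps were tested on simulated data.

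Probes were named through the platform annotation, with symbols updated through the RefSeq gene table of GRCh38.p14: 30113 probes had 1 symbol, 8 had several and 17110 had none. The members and lists were chosen with earlier results of these data known. By rule, values on every array were given for the 4 largest changes and the smallest change of each subgroup, and the 3 largest calls of each further list. TOP2A, TPX2, CDCA5, UBE2C, the second HMMR probe and the calls beyond those 3 were added after their values were seen, and the genes set together as complexes were grouped then too. Alternatives were the background correction, the normalisation, the filter, the thresholds, the moderation, array weights, the replicate number or the background class as a block, the value table and each array left out.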

Additional observations from a re-analysis of the deposited data

How the results depend on the processing

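The 34 members had 8 genes past the threshold, 5 mitotic and 3 for replication, all lower. A normexp offset of 16 left 4 (3 mitotic, 1 for replication), no filter on dim probes left 4 (3 and 1), an adjusted p of 0.01 left 2 (1 and 1) and the 4 arrays of higher background left 3 (2 and 1). A minimum of 1.5-fold left 0, since no member's change is that large. With single arrays left out, 2 to 6 members passed, 1 to 4 of them mitotic and 1 to 2 for replication, with the lowest count without siLuc replicate 1. No member was called higher under any of the 21 alternatives. The median difference of the members, -0.15, was -0.20 with each array scaled to the median of the tested probes, -0.30 with the median of all probes, and -0.17 to -0.10 with 1 array left out. That of the mitotic genes, -0.16, was -0.22 and -0.31 under these scalings. That of the replication genes, -0.12, was -0.26 with the median of all probes, -0.072 on the 4 arrays of higher background and -0.17 without siLuc replicate 3. The median over all tested probes, -0.0039, also moved, to 0.0064 with the median of the tested probes and to -0.087 with that of all probes. The further UBE2C probe lay on the other side of 0 from the member probe, at -0.30 (limma adjusted p = 0.0477); the cause was not tested for any of these. The 21 probes called in the further cell cycle lists were 13 with no filter, 8 at an adjusted p of 0.01, 4 at 1.5-fold, 11 on the arrays of higher background and 10 to 23 with 1 array left out. Over all tested probes the 1696 calls were 1016 with the median of all probes (734 lower, 282 higher), 764 at an adjusted p of 0.01, 333 at 1.5-fold, 848 on the arrays of higher background and 953 to 1797 with 1 array left out. TARDBP fell by 0.91 to 1.25 log2 units and passed under each alternative that tested it. Requiring signal above background on all 6 arrays took TARDBP and CDT1 out of the test. The replicate numbers were not used as pairs, since the labels name no pairing. Deviations of samples with the same number correlated at 0.11, 0.10 and -0.0019, and those of samples with different numbers between -0.16 and 0.064. With the replicate number as a block in limma 7 members passed, of which 6 were among the 8, HMMR (adjusted p = 0.0528) and CDC45 (adjusted p = 0.0527) did not and CDCA5 did (adjusted p = 0.0436), CDK4 of the further lists was lost (adjusted p = 0.064), and 1740 of all tested probes passed. Dim probes, among them those of CDT1 and TARDBP, limit what fold can be read.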
